A study of Homo sapiens with 8 samples.

Results

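NELFCD, NELFB and NELFE, which encode subunits of the negative elongation factor NELF, SUPT4H1 and SUPT5H, which encode the 2 subunits of DSIF, SUPT6H, which encodes the histone chaperone SPT6, and PAF1, CTR9, LEO1 and CDC73, which encode subunits of the PAF1 complex, were followed across 4 treatments of LNCaP cells. LNCaP is an androgen-responsive prostate cancer cell line established from a lymph node metastasis. The genes were taken by symbol and are 10 of the 55737 genes in the deposited table. All 10 were among the 19393 genes that entered the tests, for which the mean over the libraries had to reach 10 normalised counts. SPT6 belongs to none of the 3 complexes and is described apart from them.

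Total RNA was sequenced from cells harvested after 4 h in 4 groups of 2 libraries. The groups were control cells, cells given OSMI-2 alone, an inhibitor of O-GlcNAc transferase (OGT), cells given AT7519 alone, an inhibitor of several cyclin-dependent kinases including CDK9, and cells given both, called the combination here. OGT attaches single sugar residues to nuclear and cytoplasmic proteins. The design text gives the doses as 40 µM OSMI-2 and 0.5 µM AT7519, and the treatment protocol writes the same figures in mM. Every group is the same line, so the data describe 1 genetic background. What the control cells received besides the label "Control" is not stated, nor whether the 2 libraries of a group came from separate cultures, so the p-values measure the spread between libraries, which may be technical. The series asks how OGT inhibition bears on the cells' dependence on CDK9.

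RNA polymerase II pauses soon after it starts a gene. DSIF, made of SPT4 and SPT5, and NELF hold it there, and the kinase P-TEFb, whose catalytic subunit is CDK9, releases it by phosphorylating NELF, SPT5 and the polymerase. NELF then leaves, DSIF travels on as a positive factor, and the PAF1 complex and SPT6 join the moving polymerase, where they aid elongation, histone modification and passage through nucleosomes. The measurements below are mRNA levels of these factors' own genes, not the amount, phosphorylation or binding of the proteins.

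The libraries held 60152710 to 154367238 reads assigned to genes, and the members between 2691 reads (LEO1, combination replicate 2) and 29699 reads (SUPT5H) each. The 7 luminal prostate markers lay between 15682 and 172728 normalised counts in every library, while CDH5 of endothelium was at 0, and KRT5, TP63 and PTPRC of basal cells and leukocytes were at 3.05 or below. KRT14, COL3A1 and COL1A1, chosen as markers of other cells, reached 103.9, 789 and 3726 normalised counts. Mitochondrial mRNAs took 4.45% to 5.53% of reads where AT7519 was absent and 6.57% to 7.73% where it was present, and the part of that shift in the results was not tested. All levels are relative to the other RNAs of the library, scaled by the authors' size factors. A change of a gene and a shift of the other RNAs therefore cannot be told apart. Neither the number of cells nor the RNA per cell can be read from these levels. On that scale the median gene differed from control by -0.0042 (log2) under AT7519 and 0.022 under both agents. With totals made equal it differed by -0.34 and -0.23, and with mitochondrial mRNAs made equal by -0.91 and -0.95. The changes below are on the authors' scale unless another is named.

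Promoter sequences were available for 9 of the 10 members, and CDC73 had no entry. The 250 bases before the RefSeq start in GRCh38.p14 are shown 5′ to 3′ on the gene's strand for 4 members: NELFCD and SUPT4H1, whose mRNA rose with AT7519, SUPT5H, whose difference with OSMI-2 was the closest to 0, and LEO1, the one member called lower in all 5 pairwise comparisons. Their positions are chr20:58981006-58981255 on the plus strand for NELFCD, chr17:58352202-58352451 on the minus strand for SUPT4H1, chr19:39445332-39445581 on the plus strand for SUPT5H and chr15:51971779-51972028 on the minus strand for LEO1. Capitals mark matches, on either strand, to GGGCGG (the GC box bound by SP1), CCGGAAG (an ETS site), ATGGCG (a YY1 site) and GCGCA directly followed by TGCGC (an NRF1 site), and overlapping matches run together.
NELFCD: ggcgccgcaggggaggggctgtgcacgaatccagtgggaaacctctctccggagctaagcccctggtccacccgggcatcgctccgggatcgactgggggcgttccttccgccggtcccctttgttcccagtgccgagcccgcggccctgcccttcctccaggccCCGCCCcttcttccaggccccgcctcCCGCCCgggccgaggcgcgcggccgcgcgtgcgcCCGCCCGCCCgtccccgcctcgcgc
SUPT4H1: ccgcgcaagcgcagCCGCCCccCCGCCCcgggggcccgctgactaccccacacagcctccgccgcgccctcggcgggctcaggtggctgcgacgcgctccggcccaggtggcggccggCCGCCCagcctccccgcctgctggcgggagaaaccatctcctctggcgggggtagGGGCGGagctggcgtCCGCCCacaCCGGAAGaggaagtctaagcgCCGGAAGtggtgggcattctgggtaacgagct
SUPT5H: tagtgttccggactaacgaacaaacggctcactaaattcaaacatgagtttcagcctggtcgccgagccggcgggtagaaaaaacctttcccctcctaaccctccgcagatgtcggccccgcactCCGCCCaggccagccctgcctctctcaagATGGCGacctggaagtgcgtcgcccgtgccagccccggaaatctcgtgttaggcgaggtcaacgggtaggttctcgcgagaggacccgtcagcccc
LEO1: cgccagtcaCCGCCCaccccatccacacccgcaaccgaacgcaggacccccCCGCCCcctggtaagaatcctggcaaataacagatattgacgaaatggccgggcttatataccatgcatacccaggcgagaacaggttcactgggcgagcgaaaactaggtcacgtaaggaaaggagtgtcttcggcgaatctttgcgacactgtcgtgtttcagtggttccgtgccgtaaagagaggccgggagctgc

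All 9 promoters held GGGCGG, which was present in 42.3% of 27305 RefSeq promoters of the same length. CCGGAAG was found in 3 of the 9 (CTR9, NELFE and SUPT4H1) against 8.82% of all promoters, and ATGGCG in SUPT5H alone against 6.5%. The NRF1 site was found in NELFB against 1.13%, CCAAT in PAF1 against 33.0%, and TGACGT, the core of the cyclic AMP response element, in PAF1 and SUPT6H against 7.42%. TATAAA was in none of the 9 and in 11.1% of all promoters. The share of G and C was 76.8% in NELFCD, 75.2% in SUPT4H1, 60.8% in SUPT5H and 57.2% in LEO1, against a median of 58% over all promoters. These matches describe letters in a window, not bound sites.

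With AT7519 alone, all 3 NELF genes and both DSIF genes rose on the authors' scale, though all 5 lay below control with mitochondrial mRNAs made equal. The PAF1 complex genes parted: PAF1 rose on the authors' scale but was below control with totals or mitochondrial mRNAs made equal, LEO1 and CDC73 fell on all 4 scales tried, and CTR9 was not called on the authors' scale. CTR9 and SUPT6H were called lower with totals or mitochondrial mRNAs made equal. Of the 10 members, 6 were higher and 2 lower than control by limma at a Benjamini-Hochberg adjusted p below 0.05, and 53.2% of all genes tested were called in this comparison (26% higher, 27.2% lower). The median log2 change of the members was 0.30, beside -0.0042 over all genes. With totals made equal, 2036 of all genes were called higher and 8364 lower, in place of 5045 and 5278.

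**Figure D1:**
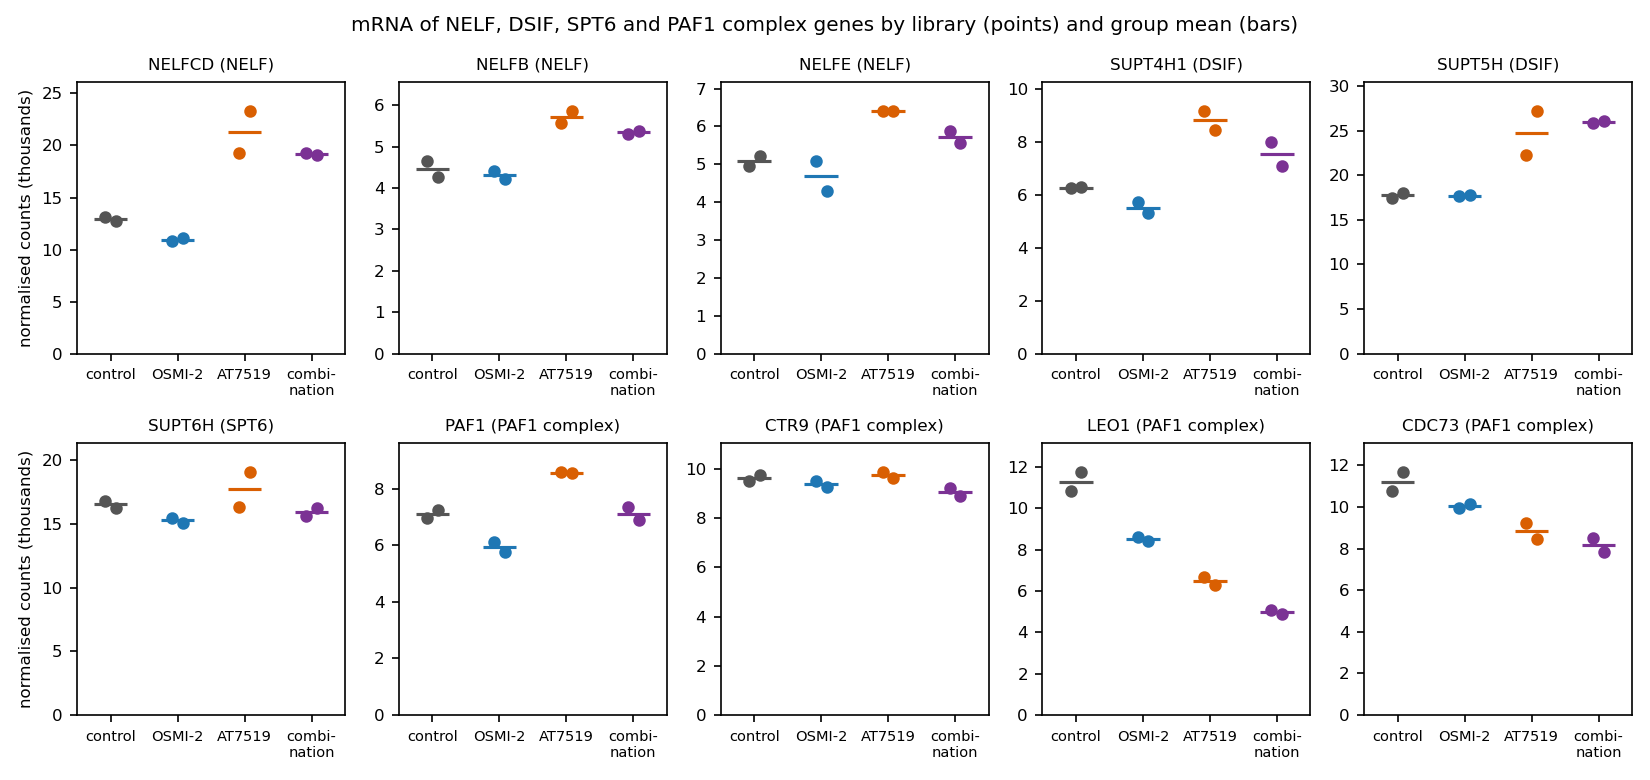
Normalised counts on the authors' scale, in units of 1000, of the 10 genes in each of the 8 libraries (points) with the group mean (bar), 1 panel per gene, axes from 0. NELFCD, NELFB, NELFE, SUPT4H1 and SUPT5H sit higher in all 4 libraries with AT7519 than in any without it, as do 25.2% of all genes tested. LEO1 and CDC73 sit lower in all 4, as do 26.2% of all genes tested.

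NELFCD encodes the NELF subunits known as NELF-C and NELF-D, which arise from one mRNA. Its normalised counts were 13146 and 12782 in the control libraries, 10801 and 11123 after OSMI-2, 19246 and 23351 after AT7519, and 19244 and 19112 after both agents. All 4 libraries with AT7519 lay above all 4 without it, and AT7519 replicate 2 was the highest of the 8. The rise with AT7519 was 1.64-fold (log2 0.71, SE 0.09, limma adjusted p = 1.2e-05), the largest of the 10, and 88.7% of all genes tested had a lower change.

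NELFB encodes the subunit also called COBRA1. It measured 4644 and 4276 in control, 4416 and 4223 after OSMI-2, 5570.5 and 5871 after AT7519, and 5315 and 5391 after both agents. NELFE encodes the RNA-binding subunit, and measured 4948 and 5213, 5089 and 4305, 6395 and 6416, and 5874.5 and 5553 in the same order. For both genes the 4 libraries with AT7519 lay above the 4 without it, with no overlap, by a smaller margin than for NELFCD. The rise with AT7519 was 1.28-fold for NELFB (log2 0.36, SE 0.09, limma adjusted p = 0.00253) and 1.26-fold for NELFE (log2 0.33, SE 0.09, limma adjusted p = 0.00744). The call for NELFE was lost without control replicate 1 (limma adjusted p = 0.06). Neither was called with totals made equal, with NELFB at 0.017 (log2, limma adjusted p = 0.885) and NELFE at -0.0083 (0.948).

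SUPT4H1 encodes SPT4, the small zinc-finger subunit of DSIF. Its values were 6249 and 6296 in control, 5711 and 5296 after OSMI-2, 9184 and 8468 after AT7519, and 7999.8 and 7101 after both agents. The groups with and without AT7519 did not overlap, and the combination lay between AT7519 and control. The rise with AT7519 was 1.41-fold (log2 0.49, SE 0.09, limma adjusted p = 0.000292). It was 0.15 and not called with totals made equal (limma adjusted p = 0.163).

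SUPT5H encodes SPT5, the large subunit of DSIF and a substrate of P-TEFb. It was at 17466 and 17987 in control, 17709.7 and 17725 after OSMI-2, 22296 and 27243 after AT7519, and 25909 and 26037 after both agents. OSMI-2 libraries fell inside the range of the control libraries, and every library with AT7519 was above every one without. The rise with AT7519 was 1.39-fold (log2 0.48, SE 0.09, limma adjusted p = 0.000351). It was 0.13 and not called with totals made equal (limma adjusted p = 0.246).

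SUPT6H encodes SPT6, which binds histones and the elongating polymerase. It measured 16823 and 16251 in control, 15486 and 15039 after OSMI-2, 16353 and 19055 after AT7519, and 15631.5 and 16274 after both agents. The groups overlapped, and AT7519 replicate 2, which was also the highest library for NELFCD, NELFB, NELFE and SUPT5H, stood apart from the rest. The difference between AT7519 and control was 0.09 (log2, 95% interval -0.08 to 0.27, limma adjusted p = 0.354). SUPT6H was called lower with totals made equal (log2 -0.25, limma adjusted p = 0.0254), and likewise with mitochondrial mRNAs made equal (log2 -0.82).

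PAF1 encodes the subunit that gives the complex its name. Its values were 6959 and 7252 in control, 6113 and 5763 after OSMI-2, 8591 and 8551 after AT7519, and 7356 and 6897 after both agents. AT7519 alone was highest, OSMI-2 alone lowest, and the combination overlapped control. The rise with AT7519 was 1.21-fold (log2 0.27, SE 0.08, limma adjusted p = 0.0106), and its call was lost without control replicate 1 (limma adjusted p = 0.0731). It was -0.0723 with totals made equal (limma adjusted p = 0.466), and with mitochondrial mRNAs made equal PAF1 was called lower (log2 -0.645).

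CTR9 encodes the scaffold subunit on which the complex is built. It had the narrowest range of the 10, from 8896 (combination replicate 2) to 9870.4 (AT7519 replicate 1), a 1.11-fold span over the 8 libraries. Control was at 9522 and 9757 and AT7519 at 9870.4 and 9641, a difference of 0.02 (log2, 95% interval -0.14 to 0.18, limma adjusted p = 0.864). That holds on the authors' scale: CTR9 was called lower with totals made equal (log2 -0.33, limma adjusted p = 0.00169) and with mitochondrial mRNAs made equal (log2 -0.90).

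LEO1 encodes a subunit that contacts the polymerase and histones. It measured 10844 and 11753 in control, 8613 and 8433 after OSMI-2, 6674 and 6272 after AT7519, and 5086 and 4908 after both agents. The 4 groups did not overlap and stepped down in that order, over the widest range of the 10 genes, 2.39-fold from the highest library to the lowest. The share of all genes with such steps was not counted. The fall with AT7519 was 1.74-fold (log2 -0.80, SE 0.08, limma adjusted p = 1.95e-06), and 18.1% of all genes had a lower change.

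CDC73 encodes parafibromin, the product of a tumour suppressor gene. Its values were 10761 and 11673 in control, 9934 and 10151 after OSMI-2, 9241 and 8476 after AT7519, and 8529 and 7818 after both agents. All 4 libraries with AT7519 were below all 4 without it, while the AT7519 and combination libraries overlapped each other. The fall with AT7519 was 1.27-fold (log2 -0.34, SE 0.08, limma adjusted p = 0.00318).

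LEO1 and CDC73 were below 0 on each of 4 scales, and the genes that rose on the authors' scale were not above 0 on all. A change of scale moves all genes by about the same amount. The median gene was at -0.34 with totals, -0.91 with mitochondrial mRNAs and 0.034 with upper quartiles made equal. With totals or mitochondrial mRNAs made equal, a fall could not reverse and a rise had to shrink, so the scales do not rank the genes. With totals made equal, LEO1 differed between AT7519 and control by -1.15 (log2) and CDC73 by -0.68. With mitochondrial mRNAs made equal they differed by -1.72 and -1.26, and with upper quartiles made equal by -0.76 and -0.30, all called by limma. NELFCD stayed called higher at equal totals (log2 0.37, limma adjusted p = 0.0043) and was at -0.21 (limma adjusted p = 0.121) with equal mitochondrial mRNAs. On that last scale no member was called higher and 9 were called lower, beside 383 and 14656 of all genes. At equal totals 1 was higher and 4 were lower, beside 2036 and 8364 of all genes. Measured from the median gene of each scale, the difference for NELFCD was between 0.70 and 0.71 on all 4. That agreement was fixed in advance, since a scale moves the gene and the median together. On the authors' scale CDC73 lay at -0.34 from the median gene.

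**Figure D2:**
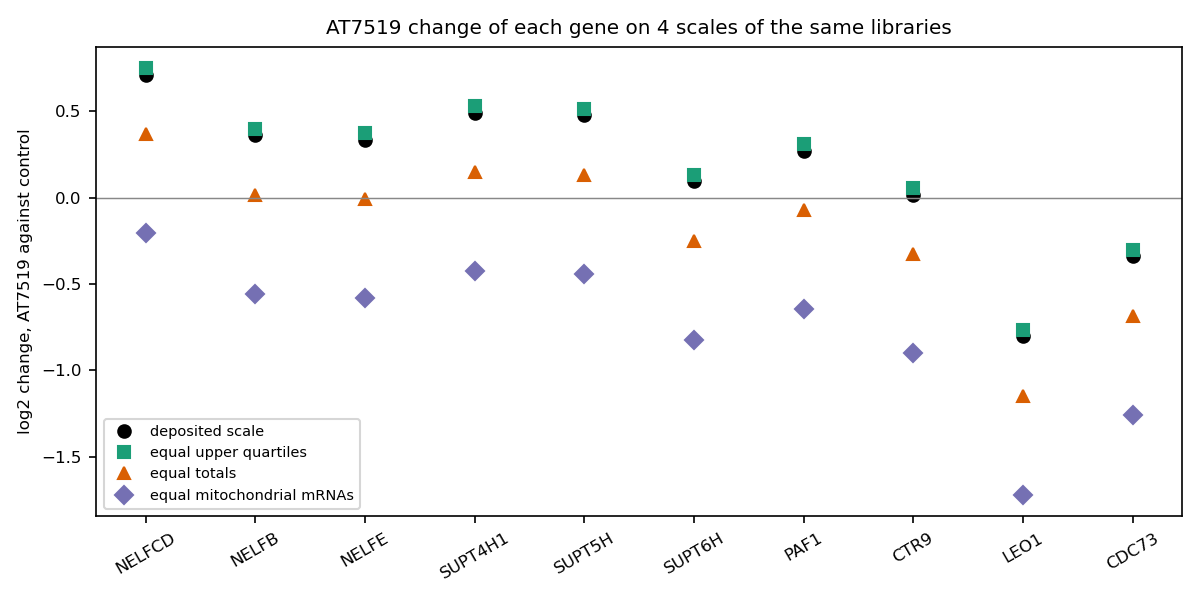
Log2 difference between AT7519 and control of each gene (points) under 4 ways of scaling the libraries. All genes shift together from scale to scale, and LEO1 and CDC73 lie below 0 on all 4 scales.

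Without reference to the scale of a library, the balance of subunit mRNAs within the complexes can be read as a ratio of 2 genes' normalised counts in the same library. The ratio of PAF1 to LEO1 was 0.629 ± 0.0175 in control (SD, n = 2), 0.697 ± 0.0187 after OSMI-2, 1.33 ± 0.0538 after AT7519 and 1.43 ± 0.0289 after both agents. CTR9 to LEO1 moved the same way, from 0.854 ± 0.0338 in control to 1.102 ± 0.0038 after OSMI-2, 1.51 ± 0.0411 after AT7519 and 1.81 ± 0.0018 after both agents. The 4 groups did not overlap in either ratio. LEO1 to CDC73, the 2 members that fell, went from 1.01 ± 0.00062 to 0.849 ± 0.0256, 0.731 ± 0.0126 and 0.612 ± 0.022 in the same order, again without overlap. In both ratios LEO1 had fewer counts relative to its partner with each agent, and fewest with both.

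In NELF, the ratio of NELFCD to NELFB was 2.91 ± 0.112 in control (SD, n = 2), 2.54 ± 0.133 after OSMI-2, 3.72 ± 0.369 after AT7519 and 3.58 ± 0.0535 after both agents. It lay between 2.45 and 2.99 where AT7519 was absent and between 3.46 and 3.98 where it was present. The ratio of NELFB to NELFE stayed between 0.820 and 0.981 in all 8 libraries, with every group overlapping control. In DSIF, SUPT4H1 to SUPT5H was 0.354 ± 0.0055 in control, 0.311 ± 0.0168 after OSMI-2, 0.361 ± 0.0715 after AT7519 and 0.291 ± 0.0255 after both agents. The 2 AT7519 libraries differed most here, at 0.412 and 0.311, one above and one below the control libraries. These ratios are descriptions of 2 libraries a group and were not tested.

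**Figure D3:**
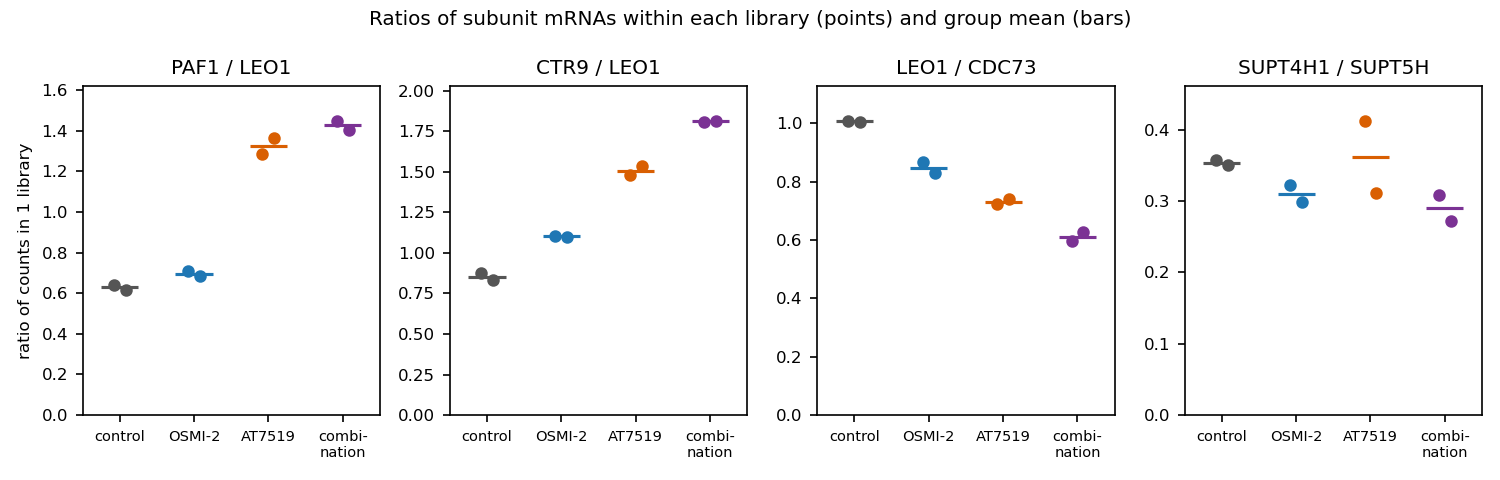
Ratios of normalised counts between subunit genes within each library (points) with group means (bars), axes from 0. PAF1 to LEO1 lies at 0.617 to 0.710 where AT7519 was absent and at 1.29 to 1.45 where it was present, and LEO1 to CDC73 steps down over the 4 groups without overlap.

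With OSMI-2 alone, LEO1 was the one member called, 1.32-fold lower than control (log2 -0.41, SE 0.08, limma adjusted p = 0.0199). The other 9 had changes between -0.26 (PAF1, limma adjusted p = 0.0944) and -0.00055 (SUPT5H, 95% interval -0.19 to 0.19, limma adjusted p = 0.998), none above 0 on the authors' scale. Of all 19393 genes, 10281 were below 0 on that scale. With totals or upper quartiles made equal, NELFB, SUPT5H and CTR9 were above 0, at 0.03, 0.0749 and 0.0382 and at 0.0135, 0.0584 and 0.0218, and not called. In this comparison 3.02% of all genes were called (0.645% higher, 2.38% lower), and the members' median was -0.14 beside -0.018 over all genes. On the unadjusted limma p, 4 members were below 0.05, beside 3450 of all genes. At equal totals 144 genes were called higher and 118 lower, in place of 125 and 461.

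The LEO1 call with OSMI-2 was lost in 6 of 18 alternatives. With all libraries kept, LEO1 was not called with totals made equal (limma adjusted p = 0.0547), with no filter beyond a mean above 0 (0.0532) or without the mean-variance trend (0.263). Its log2 change stayed between -0.53 and -0.33 in all 18 alternatives, with adjusted p from 0.000238 to 0.324. It was lost on leaving out control replicate 2 (limma adjusted p = 0.324) or either OSMI-2 library (0.0973 for replicate 1, 0.21 for replicate 2). DESeq2 on the recovered reads called PAF1 lower as well (log2 -0.26, DESeq2 adjusted p = 0.0306).

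With the combination, 4 members were higher on the authors' scale (none with mitochondrial mRNAs made equal) and 2 lower than control, while 53.9% of all genes were called (26.3% higher, 27.6% lower). At equal totals 2652 of all genes were higher and 7369 lower, at equal mitochondrial mRNAs 425 and 14590, and at equal upper quartiles 6476 and 4485. These stand in place of 5097 and 5351. NELFCD was 1.48-fold higher (log2 0.57, SE 0.09, limma adjusted p = 8.02e-05) and SUPT5H 1.47-fold higher (log2 0.55, SE 0.09, limma adjusted p = 9.36e-05). LEO1 was 2.26-fold lower (log2 -1.18, SE 0.08, limma adjusted p = 5.52e-08), the largest change of any member in any comparison, and CDC73 1.37-fold lower (log2 -0.46, SE 0.08, limma adjusted p = 0.000325). LEO1 and CDC73 were called lower under all 18 alternatives.

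NELFB and SUPT4H1 were called higher by smaller amounts with the combination. NELFB was 1.20-fold higher (log2 0.26, SE 0.09, limma adjusted p = 0.017), and the call was lost without control replicate 2 (0.138) or combination replicate 2 (0.0678). SUPT4H1 was 1.20-fold higher (log2 0.26, SE 0.09, limma adjusted p = 0.0198), and the call was lost without the mean-variance trend (limma adjusted p = 0.0758). It was also lost in the fits without control replicate 1 (log2 0.26), control replicate 2 (0.27) or combination replicate 1 (0.18). At equal totals both were level with control, at 0.0055 and 0.0061 (log2). PAF1, called higher with AT7519 alone, was at 0.0039 here (95% interval -0.17 to 0.18, limma adjusted p = 0.972) on the authors' scale. It was called lower than control with totals made equal (log2 -0.26, limma adjusted p = 0.0148) and with mitochondrial mRNAs made equal (log2 -0.97). NELFE was at 0.17 (limma adjusted p = 0.142), SUPT6H at -0.05 (0.621) and CTR9 at -0.09 (0.323). With totals made equal SUPT6H (log2 -0.31, limma adjusted p = 0.00761) and CTR9 (log2 -0.35, limma adjusted p = 0.000997) were called lower, and NELFE was at -0.0896 (0.449). With mitochondrial mRNAs made equal all 3 were called lower, SUPT6H at -1.03, CTR9 at -1.07 and NELFE at -0.81, while with upper quartiles made equal NELFE was called higher (log2 0.31, limma adjusted p = 0.0101).

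**Figure D4:**
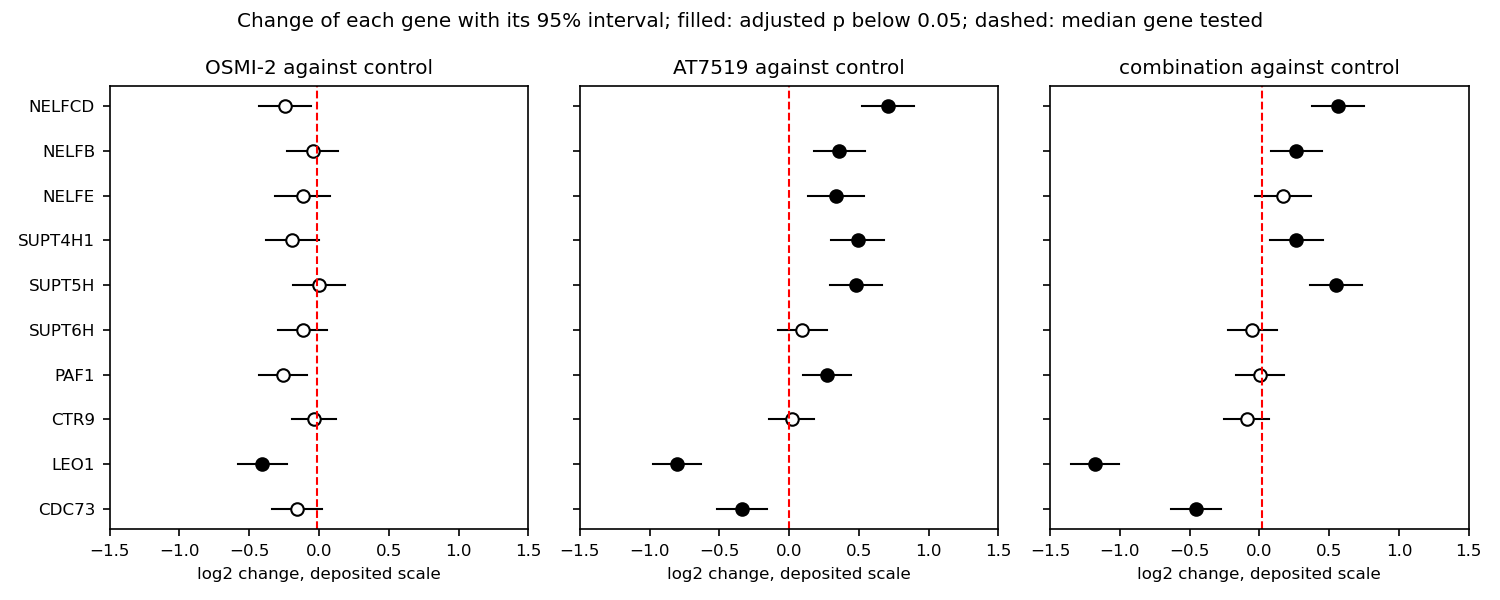
Fitted log2 change against control of each gene with OSMI-2, AT7519 and the combination (points), with 95% intervals (bars), filled where called at an adjusted p below 0.05, and the median of all genes tested as a dashed line. LEO1 runs from -0.41 with OSMI-2 to -1.18 with the combination, and on the authors' scale plotted here NELFCD, SUPT5H and SUPT4H1 lie above 0 in both groups with AT7519.

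On the authors' scale, with the 4 libraries that had AT7519 set against the 4 without, 5 members were higher in every treated library (NELFCD, NELFB, NELFE, SUPT4H1 and SUPT5H), as were 25.2% of all genes. LEO1 and CDC73 were lower in every one, as were 26.2% of all genes. SUPT6H, PAF1 and CTR9 overlapped.

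OSMI-2 added to AT7519 gave lower levels for 9 of the 10 members on the authors' scale, beside 10110 of all 19393 genes. With upper quartiles made equal, 8 members were lower. On the authors' scale LEO1 and PAF1 were called, beside 19.7% of all genes (7.21% higher, 12.5% lower). LEO1 was 1.29-fold lower in the combination than with AT7519 alone (log2 -0.37, SE 0.08, limma adjusted p = 0.00584). The call for LEO1 was lost without the mean-variance trend (limma adjusted p = 0.066) and in the fit without combination replicate 2 (log2 -0.35). PAF1 was 1.20-fold lower (log2 -0.27, SE 0.08, limma adjusted p = 0.0308). Its call was lost in 8 of 18 alternatives, among them every other scale tried. The limma adjusted p was 0.128 at equal totals, 0.068 at equal mitochondrial mRNAs and 0.147 at equal upper quartiles. The call was also lost without the mean-variance trend (limma adjusted p = 0.108) and with edgeR on the recovered reads (edgeR adjusted p = 0.0525). The rest were the fits without AT7519 replicate 1 (log2 -0.26), AT7519 replicate 2 (-0.27) or combination replicate 2 (-0.22). SUPT4H1 was at -0.23 (limma adjusted p = 0.0863), NELFCD at -0.14 (0.278) and SUPT5H at 0.08 (0.6), the one member above 0. NELFCD was called lower without AT7519 replicate 1 (log2 -0.28, 0.0469), and DESeq2 called SUPT4H1 lower as well (log2 -0.24, DESeq2 adjusted p = 0.0498). At equal totals 2023 of all genes were higher and 1534 lower here, and at equal upper quartiles 2191 and 1440, in place of 1399 and 2416.

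AT7519 added to OSMI-2 gave the same 8 members as AT7519 alone in the same directions, the higher ones again below 0 with mitochondrial mRNAs made equal: the 3 NELF genes, both DSIF genes and PAF1 were higher in the combination than with OSMI-2, and LEO1 and CDC73 lower, beside 54.8% of all genes (27.5% higher, 27.3% lower). NELFCD was 1.75-fold higher (log2 0.81, SE 0.09, limma adjusted p = 3.12e-06) and LEO1 1.71-fold lower (log2 -0.77, SE 0.08, limma adjusted p = 2.31e-06). SUPT6H and CTR9, at 0.06 and -0.05, were called lower with totals made equal (log2 -0.27, limma adjusted p = 0.017, and log2 -0.39, limma adjusted p = 0.000437). On that scale NELFB (-0.0245), NELFE (-0.047) and PAF1 (-0.0712) were below 0, SUPT4H1 (0.12) and SUPT5H (0.22) above it, and none of these 5 was called. On the authors' scale, NELFE was not called without the mean-variance trend (limma adjusted p = 0.0711). Without OSMI-2 replicate 2, 4 of the 8 calls were lost: NELFB (0.0593), NELFE (0.232), PAF1 (0.102) and CDC73 (0.0504). Without combination replicate 1, NELFE (0.0969) and PAF1 (0.0853) were lost, and without combination replicate 2, CDC73 (0.0715). At equal totals 2129 of all genes were higher and 7862 lower, and at equal mitochondrial mRNAs 421 and 13515, in place of 5342 and 5288.

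The 2 comparisons that add OSMI-2 share no library, nor do the 2 that add AT7519. Over the 10 members, the OSMI-2 change without AT7519 and that with it had a Pearson correlation of 0.884 and a Spearman correlation of 0.855, beside 0.351 and 0.451 over all 19393 genes. On the authors' scale 9 of the 10 members were below 0 in both, beside 37.8% of all genes, and 7 of 10 with totals or upper quartiles made equal. All members share the same 8 libraries, and no p is given. LEO1 was lowest of the members in both (-0.41 and -0.37) and PAF1 second lowest (-0.26 and -0.27). For AT7519 without and with OSMI-2 the correlations over members were 0.992 and 0.988, beside 0.846 and 0.837 over all genes. In both pairs the members, at 4223 to 27243 normalised counts, were set beside genes with means down to 10. The sets were not matched for level, and the part of that in the differences was not tested.

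**Figure D5:**
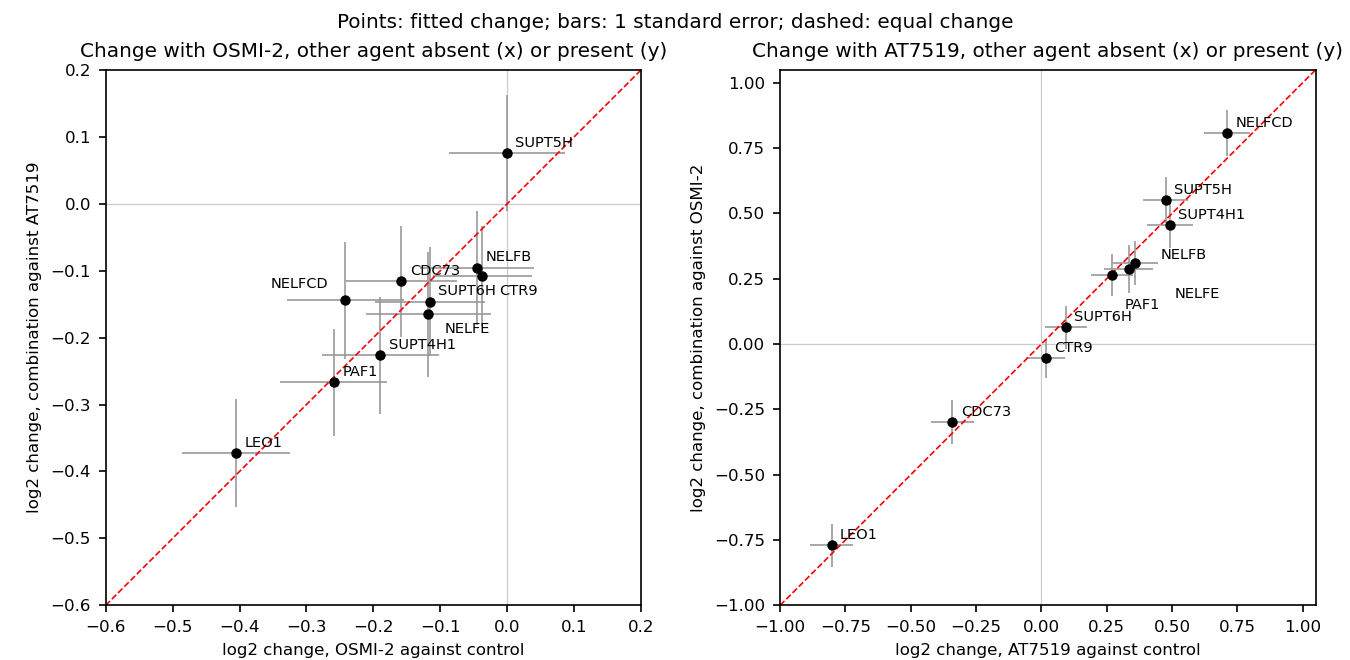
Log2 change of each gene on adding OSMI-2 (left) or AT7519 (right), without the other agent on the horizontal axis and with it on the vertical axis, with bars of 1 SE and a dashed line of equal change. LEO1 lies near the line at -0.41 and -0.37 for OSMI-2 and at -0.80 and -0.77 for AT7519.

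The interaction, which asks whether OSMI-2 acted differently with AT7519 present, was called for none of the 10 members by limma, edgeR or DESeq2, and none had an unadjusted limma p below 0.05. It was called for 1.04% of all genes (0.0619% higher, 0.975% lower). The estimates ran from -0.07 (CTR9) to 0.10 (NELFCD), with 95% intervals that reached -0.33 (NELFE) at the low end and 0.36 (NELFCD) at the high end. For LEO1 the 2 single changes summed to -1.21 against -1.18 measured in the combination, and for NELFCD to 0.47 against 0.57. Differences within those intervals were not detectable with 2 libraries a group.

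Levels of different genes were compared per kb of exon, from GENCODE exon lengths, with 1 SD over 2 libraries. In control the order was NELFCD (5624 ± 112 normalised counts per kb), LEO1 (5152 ± 293), SUPT5H (4364 ± 90.7), PAF1 (3439 ± 100.2), SUPT4H1 (3124 ± 16.4), NELFE (2819 ± 104), SUPT6H (2496 ± 61.1), CTR9 (2102 ± 36.3), CDC73 (1839 ± 106) and NELFB (1653 ± 96.2). No neighbours in that order overlapped. LEO1 moved from the second place in control to the third with OSMI-2, the sixth with AT7519 and the seventh with the combination, where it stood at 2279 ± 57.6 per kb. CDC73 went from the ninth place to the tenth in both groups with AT7519. With AT7519, LEO1 overlapped SUPT6H and CTR9 overlapped NELFB, and with the combination SUPT4H1 overlapped PAF1 and NELFB overlapped CTR9. With OSMI-2, the overlapping neighbours were PAF1 with SUPT4H1, SUPT4H1 with NELFE, and CDC73 with NELFB.

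Some members share ground with other genes in GENCODE, and the library kit is strand-specific while the strand setting of the counting is not given in the sources used here. LEO1 on chromosome 15 overlaps MAPK6 over 58.3% and TMOD3 over 27.4% of its span, both on the opposite strand. MAPK6 and TMOD3 had means of 19478 and 9353 normalised counts, and the part of their reads in the LEO1 counts was not tested. SUPT4H1 on chromosome 17 lies within an antisense gene, and a protein-coding gene model on its own strand covers 99.6% of its span, so its reads are uncertain. CTR9 on chromosome 11 overlaps EIF4G2 on the opposite strand over 9.04% of its span, a gene with a mean of 134024 normalised counts. NELFCD on chromosome 20, NELFB on chromosome 9, and PAF1 and SUPT5H on chromosome 19 had no overlapping gene, and NELFE, SUPT6H and CDC73 shared at most 6.78% of their span with any one gene.

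A list of 23 other genes of elongation holds the remaining subunits NELFA, WDR61 and RTF1, SPT6 partner and histone chaperone genes, cofactors of elongation and the elongation kinases. With AT7519, 8 of 23 were higher and 8 lower (median log2 0.13), beside 26% and 27.2% of all genes: CDK9 (0.77) and WDR61 (0.54) had the largest rises and PPP1R10 (-3.74), a phosphatase targeting subunit, and CDK13 (-1.42), an elongation kinase, the largest falls. These rises are smaller than the shift of the median gene, -0.91, with mitochondrial mRNAs made equal. With OSMI-2, none was higher and 1 lower, beside 0.645% and 2.38% of all genes: IWS1 (-0.42), a partner of SPT6. With the combination, 7 were higher and 10 lower (median -0.17), beside 26.3% and 27.6% of all genes. TCEA2 (0.62) and TCEA1 (0.53), both encoding TFIIS, rose most on the authors' scale, and PPP1R10 (-2.42) and CDK13 (-1.39) fell most. Both rises are smaller than the shift of the median gene in this comparison, -0.95, with mitochondrial mRNAs made equal.

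Of the 23, adding OSMI-2 to AT7519 left 2 higher, PPP1R10 (1.31) and TCEA2 (0.31), and 9 lower, led by CCNT1 (-0.87), a cyclin of P-TEFb, and IWS1 (-0.56), beside 7.21% and 12.5% of all genes. Adding AT7519 to OSMI-2 left 8 higher on the authors' scale, led by WDR61 (0.65) and SSRP1 (0.58), beside 27.5% of all genes. It left 10 lower, led by PPP1R10 (-2.45) and CDK13 (-1.40), beside 27.3%. The rises of WDR61 and SSRP1 are smaller than the shift of the median gene here, -0.81, with mitochondrial mRNAs made equal. The interaction was called for PPP1R10 (log2 1.29, limma adjusted p = 0.00796) and CCNT1 (log2 -0.80, limma adjusted p = 0.0379), beside 1.04% of all genes. The 2 combination libraries differed for CCNT1, at 8183 and 5845 normalised counts. Calls of the 23 genes were not followed one by one in the alternatives. Without the mean-variance trend no gene was called for the interaction. The 3 remaining subunits were singled out after their values were seen. NELFA, the fourth NELF gene, was at 0.13 with AT7519 (limma adjusted p = 0.343), and its difference from the other 3 NELF genes was not tested. It was lower on adding OSMI-2 to AT7519 (log2 -0.38, limma adjusted p = 0.0293). RTF1 was at -0.05 with AT7519 (limma adjusted p = 0.654) and fell with the combination (log2 -0.36, limma adjusted p = 0.00214), and WDR61 rose with AT7519 (log2 0.54, limma adjusted p = 6.55e-05).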

How the data were processed

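RNA-seq libraries of LNCaP cells were compared in 4 groups of 2. STAR, HTSeq and DESeq2, with builds hg19 and GRCh37, are named without roles or versions in the submitters' processing notes. The deposited values are a signal: read counts per gene, each library of which the authors had scaled by a single size factor, as the values show: divided by 1 step size per library, 100% are whole reads within 0.01. The 28 rows without a gene name were left out.

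The main test was limma 3.58.1 in R 4.3.3 (mean-variance trend, two-sided) on log2(normalised count + 1), where the added 1 is the pseudocount, over all 8 libraries with group means. Genes needed a mean of 10 normalised counts. p-values were Benjamini-Hochberg adjusted over all 19393 genes of each comparison and called below 0.05. The 6 comparisons were each treatment against control, the combination against each single agent, and the interaction. edgeR 4.0.16 and DESeq2 1.42.0 on the recovered reads, other scales, filters and pseudocounts, a replicate block and leaving out each library were alternatives. The fits were tested on simulated data. edgeR called 10420 genes with AT7519 and 667 with OSMI-2.

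The 10 members and all lists were chosen with earlier results of these data known. All members are named. Of 23 other elongation genes, at most 2 rises and 2 falls are named per comparison, and of the genes with the most similar pattern (mean of at least 50 normalised counts) up to 3 per member. Promoters come from RefSeq (GRCh38.p14) by symbol and exon lengths from GENCODE by symbol (10 of 10 matched). Protein sequences and gene coordinates in the files' build are not used here.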

Additional observations from a re-analysis of the deposited data

How the results depend on the processing

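Of 60 member values (10 genes in 6 comparisons), each recomputed under 18 alternatives, 952 of 1080 results kept their direction and side of the threshold, 49 changed sign but were called neither way (26 of them in the interaction), 39 lost their call, 10 gained one and 30 changed sign with a call on at least one side, 21 with mitochondrial mRNAs made equal and 9 with totals made equal. Part of the 952 was fixed in advance. The filters, the mean-variance trend and the replicate block leave each log2 change as it is. So does leaving out a library that is not in the comparison. Such alternatives could move only the p-values, not the direction. With mitochondrial mRNAs made equal, AT7519 against control was -0.21 (NELFCD), -0.56 (NELFB), -0.58 (NELFE), -0.42 (SUPT4H1), -0.44 (SUPT5H), -0.82 (SUPT6H), -0.65 (PAF1) and -0.90 (CTR9). The combination against control was -0.41 (NELFCD), -0.71 (NELFB), -0.81 (NELFE), -0.71 (SUPT4H1), -0.43 (SUPT5H) and -0.97 (PAF1). The combination against OSMI-2 was -0.0463 (NELFCD), -0.54 (NELFB), -0.57 (NELFE), -0.40 (SUPT4H1), -0.30 (SUPT5H), -0.79 (SUPT6H) and -0.59 (PAF1). With totals made equal, AT7519 against control was -0.0083 (NELFE), -0.25 (SUPT6H), -0.0723 (PAF1) and -0.33 (CTR9), the combination against control -0.26 (PAF1), and the combination against OSMI-2 -0.0245 (NELFB), -0.047 (NELFE), -0.27 (SUPT6H) and -0.0712 (PAF1). The scale is the construction that moves these values, since each shifts with the median gene.

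Members called with OSMI-2 were 1, and 2 by DESeq2, 0 at equal totals, 0 without a filter, 0 without the mean-variance trend, and 0 to 1 leaving out a library. With AT7519 they were 8, 5 at equal totals, and 6 to 8 leaving out a library. With the combination they were 6, 10 with mitochondrial mRNAs made equal, and 4 to 6 leaving out a library. For OSMI-2 added to AT7519 they were 2, and 1 by edgeR, at equal totals, at equal mitochondrial mRNAs and at equal upper quartiles, 0 without the trend, and 0 to 2 leaving out a library. For AT7519 added to OSMI-2 they were 8, 5 at equal totals and 4 to 8 leaving out a library. For the interaction they were 0 in every alternative, with 0 at an unadjusted p below 0.05 in each. By limma without the trend, 2 members had an unadjusted p below 0.05 with OSMI-2, beside 2788 of all genes. With OSMI-2 added to AT7519 there were 2 such members, beside 5542 of all genes. With mitochondrial mRNAs made equal, 425 of all genes were called higher and 14590 lower with the combination.

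Of all genes, 586 were called with OSMI-2, and 1496 by DESeq2, 1271 at equal mitochondrial mRNAs, 262 at equal totals, 285 at equal upper quartiles, 101 without a filter, 0 without the trend and 2 to 892 leaving out a library. With AT7519, 10323 were called and 8294 to 10573 leaving out a library. With the combination, 10448 and 8307 to 10861. For OSMI-2 added to AT7519, 3815, with 865 without the trend and 1683 to 3860 leaving out a library. For AT7519 added to OSMI-2, 10630 and 8565 to 11066. For the interaction, 201, with 558 by DESeq2, 118 at equal upper quartiles, 33 without a filter, 0 without the trend, 404 with the replicate block and 2 to 490 leaving out a library. Without the trend, 2788 genes with OSMI-2 and 1800 for the interaction had an unadjusted limma p below 0.05. The cause of the changes not named as a scale was not tested.

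Libraries with the same replicate number deviated together with correlations of 0.0207 to 0.1227, so the numbers were not taken to pair samples. The replicate block changed the call of none of the 60 member values, and all-gene calls with OSMI-2 went from 586 to 865. With 2 libraries a group, leaving one out assumes that the lone library varies like the other groups.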

Other observations

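The genes whose pattern over the 8 libraries was most like each member's were found among 15284 genes, by the root mean square difference of log2 values centred on each gene's own mean. LEO1 was nearest to MSH6 (0.047), a DNA mismatch repair gene, and then SLC25A32 (0.061), and CDC73 was nearest to DDX50 (0.031), an RNA helicase gene. SUPT5H was nearest to PCID2 (0.025) and ARFGAP1 (0.026), SUPT4H1 to RHEB (0.026), a small GTPase gene, and PAF1 to VDAC3 (0.034), a mitochondrial channel gene. NELFB was nearest to RNF10 (0.031), NELFE to AMZ2 (0.037), SUPT6H to LSM14B (0.038) and CTR9 to GMPR2 (0.027). No member was among the 3 nearest genes of another. Between members, the closest pair was NELFE and PAF1 (0.076), from different complexes, then NELFB and NELFE (0.082). The subunits of DSIF, SUPT4H1 and SUPT5H, were at 0.17, and the farthest pair was NELFCD and LEO1 (0.79).

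The genomic span of the members, from RefSeq, ran from 5.48 kb (PAF1) to 133 kb (CDC73), with LEO1 at 33.8 kb and NELFCD at 13.9 kb. Across the 10 members the Spearman correlation of span with the log2 change was -0.55 for AT7519 and -0.50 for the combination, beside -0.21 and -0.16 over 12333 protein-coding genes. SUPT6H spans 40.5 kb and SUPT5H 31.1 kb. Genes of one library are not independent replicates, and these correlations are descriptions.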
